A study of Mus musculus with 15 samples.

Results

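Endothelial cells line every vessel of the lung, and the 40 genes described here are markers of those cells, out of 18193 genes that the array measured with a probe set of their own. Each gene was followed through 1 probe set, the one with the highest mean signal over the 15 arrays among those annotated to that gene alone, and 39 of the 40 had a mean signal over 100 and were tested. The 40 genes comprise 18 general endothelial genes, 4 endothelial transcription factors, 11 genes that lung capillaries express strongly, 3 arterial genes, the large-vessel gene Vwf and 3 lymphatic genes. Mice of a C57BL/6 background carried a c-raf transgene under the promoter of surfactant protein C (SP-C), which acts in alveolar type 2 and other respiratory epithelial cells and not in endothelium. The 5 dysplasia arrays hold RNA of lesions cut by laser from lung sections of these mice at 5 to 7 months, and the 5 transgenic arrays hold RNA of areas that looked unaltered in the same animals. The 5 non-transgenic arrays hold RNA from lungs of littermates without the transgene, aged 7 to 10 months. For each array, areas cut from 1 animal were pooled before extraction.

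Vascular endothelium is held together by junction proteins such as VE-cadherin, and its survival, sprouting and tone are set by receptors for angiopoietins, vascular endothelial growth factors, bone morphogenetic proteins and endothelins. In the alveolar wall a dense capillary bed lies against the epithelium, and its cells carry surface enzymes and receptors that arterial and lymphatic endothelium have less of. The array signal is a brightness in arbitrary units that rises with the amount of RNA, so the level of a gene was compared between arrays and not with the level of another gene.

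Nearly all the endothelial genes tested were lower in dysplasia than in unaltered lung of either kind, among them 10 of 11 capillary, 3 of 3 arterial and 2 of 2 tested lymphatic genes against transgenic tissue. Of the 39 genes tested, 38 were lower in dysplasia than in transgenic tissue and none was higher, where a call means an adjusted p below 0.05 (limma, Benjamini-Hochberg over 21658 probe sets). Over all probe sets tested, 17.9% were called lower and 15.3% higher in the same comparison. The median log2 change of the 39 genes was -1.55, against -0.01 over all probe sets, and their dysplasia signal stood at a median of 33.1% of the transgenic mean. In 36 of the 39 genes the highest dysplasia array lay below the lowest transgenic array, a separation seen in 13.6% of all probe sets. Against non-transgenic lung 39 of 39 genes were lower in dysplasia, where the background was 23.3% lower and 20.7% higher, and the median signal was 29.0% of the non-transgenic mean, with 36 genes free of overlap against 17.5% of all probe sets. The comparisons with transgenic and with non-transgenic tissue use the same dysplasia arrays, so they are not separate evidence. The dysplasia and non-transgenic mice also differ in age and transgene, which cannot be told apart from the lesion in that comparison. Each array was scaled to a target of 500, so a signal also depends on the other RNA of its array. In tissue pieces of this kind, fewer endothelial cells, less RNA per endothelial cell and more RNA from other cells cannot be told apart.

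The arrays differed among themselves in ways that touched these genes. Dysplasia 4 was the highest dysplasia array for 30 of the 39 genes, transgenic 2 the lowest transgenic array for 23, and non-transgenic 5 the lowest of its group for 21. The title of transgenic 2 calls it unaltered while another of its fields calls the tissue a tumour. Xist, an RNA of female cells, had a signal of 9674 on dysplasia 4 and 85.0 on transgenic 4, although the sample descriptions place dysplastic and unaltered tissue in the same mice. The 5′ to 3′ signal ratio of the beta-actin control probe sets, a sign of RNA integrity, ran from 25.1% to 75.2% on the dysplasia arrays, 12.5% to 63.4% on the transgenic and 14.1% to 72.8% on the non-transgenic arrays. Without dysplasia 4 the calls against transgenic tissue stayed at 38 lower with a median log2 change of -1.66, and without transgenic 2 they stayed at 38 lower with the same rounded median of -1.66.

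Among the general endothelial genes, Cdh5 encodes VE-cadherin, the adhesion protein of endothelial junctions. Cdh5 had signals of 1893, 1935, 1704, 2771 and 2113 on dysplasia arrays 1 to 5, 6869, 6221, 7749, 8555 and 7763 on the transgenic arrays and 8549, 8551, 9620.3, 8617 and 8209 on the non-transgenic arrays. The 5 dysplasia arrays lay close together and far below every other array, with dysplasia 4 the highest of them. The log2 change, taken throughout on log2(signal + 50), was -1.82 (SE 0.14, adjusted p = 5.02e-06) against transgenic and -2.06 (SE 0.12, adjusted p = 4.72e-07) against non-transgenic tissue. Pecam1, the adhesion molecule CD31, had signals of 847, 764, 544, 1016 and 456 on dysplasia arrays 1 to 5, 3194, 2875, 3136, 3133 and 1473 on the transgenic arrays and 3653, 3925, 3307, 3067 and 1559 on the non-transgenic arrays. The array numbered 5 was the lowest of each group for Pecam1, and the dysplasia arrays nevertheless did not overlap either other group. Pecam1 changed by -1.86 (SE 0.25, adjusted p = 0.000199) against transgenic tissue, to 26.3% of its mean, and by -2.01 (SE 0.27, adjusted p = 0.00011) against non-transgenic tissue.

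The angiopoietin receptor Tek (Tie2) and its partner Tie1 keep quiescent vessels stable. Tek had signals of 1319.9, 978, 978, 1824 and 1287 on dysplasia arrays 1 to 5, 5349, 4497, 5209.9, 5905 and 5699.9 on the transgenic arrays and 6433, 6425, 6844, 6689.7 and 6196 on the non-transgenic arrays. Tie1 had signals of 538, 433, 396, 541 and 486 on dysplasia arrays 1 to 5, 2066, 1446, 1847, 1859 and 1659 on the transgenic arrays and 2018, 2385, 2235, 1699.7 and 1741 on the non-transgenic arrays. Both genes fell without overlap between dysplasia and either other group. The log2 change of Tek was -2.05 (SE 0.16, adjusted p = 6.72e-06) against transgenic and -2.34 (SE 0.15, adjusted p = 8.58e-07) against non-transgenic tissue, and that of Tie1 was -1.79 (SE 0.12, adjusted p = 2.63e-06) and -1.96 (SE 0.12, adjusted p = 6.77e-07). Flt1 encodes VEGF receptor 1, which binds growth factor with little signalling of its own. Flt1 had signals of 1697, 1338, 633, 1409 and 1058 on dysplasia arrays 1 to 5, 3295, 2341, 2016, 2281 and 1947 on the transgenic arrays and 3266, 4054, 2267, 1921 and 1823 on the non-transgenic arrays. Its arrays were spread widely within every group, and the fall of 0.97 (SE 0.24, adjusted p = 0.00837) against transgenic tissue was among the smaller ones. A dimmer Flt1 probe set had a log2 change of -0.49 (SE 0.23, adjusted p = 0.127) and was not called in that comparison.

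Clec14a, an endothelial lectin-like protein involved in sprouting, fell most among the general genes. Clec14a had signals of 918, 761, 759, 1532 and 775 on dysplasia arrays 1 to 5, 3602, 4274, 5136, 4449.6 and 4342 on the transgenic arrays and 5821, 4735, 5379, 5477 and 4598 on the non-transgenic arrays, and dysplasia 4 stood above the other 4 dysplasia arrays. Its log2 change was -2.19 (SE 0.19, adjusted p = 1e-05) against transgenic tissue, where 21.8% of the mean signal remained, and -2.44 (SE 0.18, adjusted p = 1.73e-06) against non-transgenic tissue. The adhesion molecule Icam2 kept 25.7% of its transgenic mean, with a log2 change of -1.95 (SE 0.19, adjusted p = 2.1e-05). The secreted vascular protein Egfl7 and the matrix protein Mmrn2, a ligand of Clec14a, stood at 30.8% and 32%.

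The genes of the lipid and peptide receptors of endothelium fell by intermediate amounts. S1pr1, a receptor for sphingosine 1-phosphate that tightens the barrier, stood at 33.1% of the transgenic mean, and Eng, a co-receptor for bone morphogenetic proteins, at 33.5%. Calcrl and Ramp2, which form the adrenomedullin receptor together, stood at 40.2% and 34.6%, with log2 changes of -1.31 (SE 0.18, adjusted p = 0.000217) and -1.54 (SE 0.20, adjusted p = 0.000163). The guidance receptor Robo4 and the endothelial membrane protein Ecscr were at 43.8% and 40.1%. All 18 general endothelial genes were called lower against transgenic tissue, with a median of 33.3% of the transgenic mean.

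The smallest falls among the general genes were those of Nos3, Cd34 and Esam. Nos3 encodes endothelial nitric oxide synthase and had signals of 314, 252, 247, 298 and 260.5 on dysplasia arrays 1 to 5, 547, 475, 571, 477 and 552 on the transgenic arrays and 491, 582, 513, 515 and 509 on the non-transgenic arrays. Its signals were low on this array but tight within groups, and its log2 change was -0.83 (SE 0.10, adjusted p = 6.55e-05) against transgenic and -0.82 (SE 0.09, adjusted p = 2.32e-05) against non-transgenic tissue. Cd34, a sialomucin of endothelium that is also made by stem cells and some fibroblasts, had signals of 2084, 2478, 2258, 2628 and 2439 on dysplasia arrays 1 to 5, 2959, 3235, 3610.2, 3285 and 2926 on the transgenic arrays and 3539, 3551, 3978, 3678 and 3498 on the non-transgenic arrays. The highest dysplasia array for Cd34 lay below the lowest transgenic array, and 74.2% of the transgenic mean remained, with a log2 change of -0.42 (SE 0.10, adjusted p = 0.00547). Esam, a tight junction molecule of endothelium and platelets, had signals of 6794, 5431, 7714, 7175 and 6223 on dysplasia arrays 1 to 5, 9790.0, 7721, 9341, 8574 and 8350.3 on the transgenic arrays and 9916, 9073, 10102, 8974 and 8299 on the non-transgenic arrays. Dysplasia 3 reached nearly the level of transgenic 2 for Esam without passing it, and the log2 change was -0.40 (SE 0.11, adjusted p = 0.019) against transgenic and -0.48 (SE 0.11, adjusted p = 0.00401) against non-transgenic tissue. With array number 5 left out of every group the Esam change against transgenic tissue was -0.39 and was not called (adjusted p = 0.0646).

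**Figure D1:**
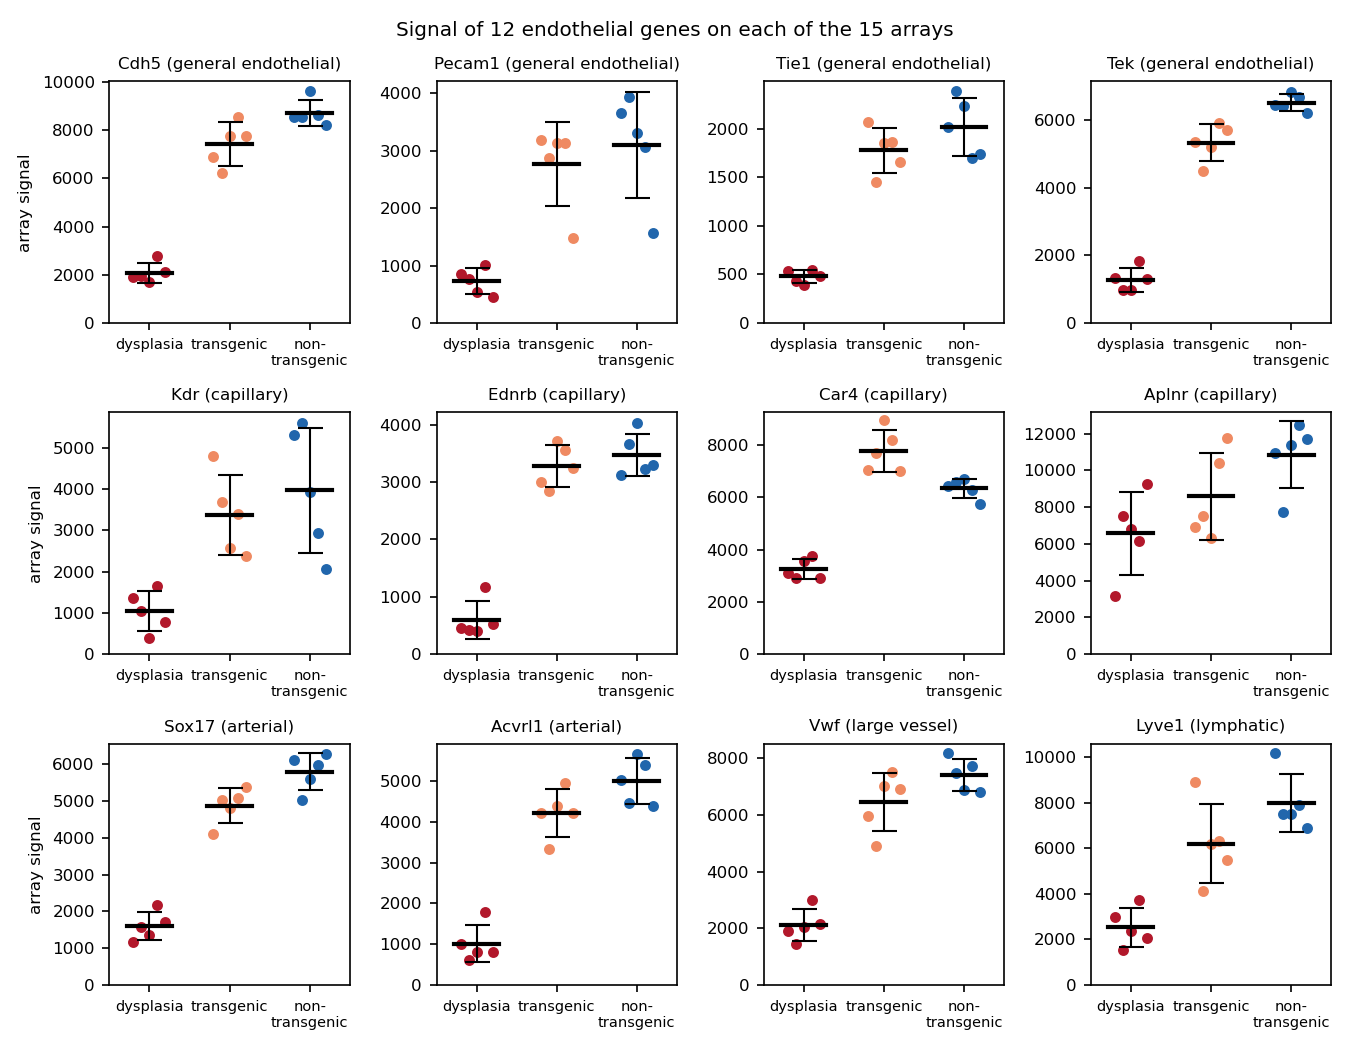
Array signal in arbitrary units (y axis, from 0) of 12 endothelial genes on the 5 dysplasia, 5 transgenic and 5 non-transgenic arrays (x axis). Points are single arrays in the order of their numbers, the wide line is the mean and the bar with caps is 1 SD. The dysplasia arrays lie below all others in every panel except that of Aplnr, where dysplasia 5 at 9284 exceeds 3 of the transgenic arrays.

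Transcription factors of the endothelial programme followed the surface markers. Erg, an Ets-family factor that maintains endothelial identity, had signals of 268, 388, 339.8, 484 and 422 on dysplasia arrays 1 to 5, 585, 1198, 1034, 1176 and 1299 on the transgenic arrays and 1232, 1549, 1213, 1376 and 1967 on the non-transgenic arrays. Transgenic 1 was the lowest of its group for Erg but stayed above every dysplasia array, and the log2 change was -1.34 (SE 0.21, adjusted p = 0.000502). Sox7 and Sox18, the SoxF factors of early and mature vessels, stood at 28.7% and 31.8% of the transgenic mean, with log2 changes of -1.75 (SE 0.13, adjusted p = 3.84e-06) and -1.60 (SE 0.11, adjusted p = 3.44e-06). Tal1, a factor shared by endothelial and blood precursors that works together with Gata proteins, was at 36.6% with a log2 change of -1.32 (SE 0.14, adjusted p = 3.78e-05). All 4 were called lower in both comparisons, without overlap between the groups, and their median was 33.9% of the transgenic mean.

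The start regions of these genes were searched for short motifs of the factor families just named. RefSeq promoter sequences on build GRCm38.p6 were matched by symbol for 19 of the 40 genes, in 26 entries, and the 250 bases before each annotated start were read on both strands. The Ets motif CAGGAAG was in 26.9% of the 26 entries and in 10.8% of all 32851 promoter entries, and the Ets motif CCGGAAG in 3.8% and 6.9%. The Gata motif AGATAA was in 7.7% of the endothelial entries and 10.0% of all, the Sox motif ACAATG in 7.7% and 10.7%, and the Klf motif GGGTGTG in 11.5% and 6.9%. A match is a string of letters and not a bound site, and no test was made of these shares. At least 1 of the 5 motifs was in 46.2% of the endothelial entries, those of 11 genes, and in 38.4% of all.

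Printed below, 5′ to 3′ along each gene, are the 250 bases before the start of Erg, Robo4, Calcrl, Tie1, Clec14a and Ednrb. Erg held more matches than Tal1 or Prox1, the other transcription factors with an entry. Robo4 had an Ets match, Calcrl an Ets and a Sox match, and Tie1 and Clec14a a Klf match each. Ednrb fell most against transgenic tissue and held no match. Capitals mark the matches, which read as the reverse complement where the motif lies on the opposite strand. The Erg matches to the Ets, Sox and Gata motifs all lie on the opposite strand, as does the Klf match of Tie1. The other Erg entries, not printed, held no match. The regions lie at chr16:95459349-95459598, minus strand (Erg, 1 of its 3 entries), chr9:37401722-37401971, plus strand (Robo4), chr2:84425267-84425516, minus strand (Calcrl), chr4:118489850-118490099, minus strand (Tie1), chr12:58269259-58269508, minus strand (Clec14a) and chr14:103843702-103843951, minus strand (Ednrb).
Erg: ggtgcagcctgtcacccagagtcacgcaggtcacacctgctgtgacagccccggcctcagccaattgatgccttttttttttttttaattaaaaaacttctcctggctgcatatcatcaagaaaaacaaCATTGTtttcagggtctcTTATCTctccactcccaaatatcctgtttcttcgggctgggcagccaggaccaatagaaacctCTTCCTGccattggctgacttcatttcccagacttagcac
Robo4: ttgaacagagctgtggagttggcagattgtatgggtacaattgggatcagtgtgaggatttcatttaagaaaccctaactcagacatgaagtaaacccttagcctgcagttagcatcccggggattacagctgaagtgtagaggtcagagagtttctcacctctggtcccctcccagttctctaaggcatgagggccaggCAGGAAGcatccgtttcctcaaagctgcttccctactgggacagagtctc
Calcrl: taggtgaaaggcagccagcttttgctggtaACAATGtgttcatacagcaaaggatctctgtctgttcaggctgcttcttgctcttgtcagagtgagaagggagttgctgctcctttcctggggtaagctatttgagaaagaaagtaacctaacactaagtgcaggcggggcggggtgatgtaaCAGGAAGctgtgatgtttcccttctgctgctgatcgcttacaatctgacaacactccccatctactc
Tie1: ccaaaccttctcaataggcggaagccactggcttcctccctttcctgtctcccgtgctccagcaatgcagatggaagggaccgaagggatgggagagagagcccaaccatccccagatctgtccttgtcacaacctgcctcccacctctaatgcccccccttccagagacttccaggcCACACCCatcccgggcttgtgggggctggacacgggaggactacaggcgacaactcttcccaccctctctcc
Clec14a: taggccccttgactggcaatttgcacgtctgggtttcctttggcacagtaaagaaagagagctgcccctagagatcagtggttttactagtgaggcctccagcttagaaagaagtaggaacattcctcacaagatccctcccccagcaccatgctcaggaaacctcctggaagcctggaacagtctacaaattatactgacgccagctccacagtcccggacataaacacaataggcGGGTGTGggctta
Ednrb: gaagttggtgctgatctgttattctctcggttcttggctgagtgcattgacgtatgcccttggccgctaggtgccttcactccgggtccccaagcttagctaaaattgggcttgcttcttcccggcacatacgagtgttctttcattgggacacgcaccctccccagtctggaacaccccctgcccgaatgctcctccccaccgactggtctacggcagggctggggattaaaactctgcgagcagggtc

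The capillary genes ranged, against transgenic tissue, from Ednrb, with the largest fall of the whole set, to Aplnr, which had no call. Against non-transgenic tissue Tmem100 fell more than Ednrb. Ednrb, the endothelin B receptor that clears endothelin in the lung, had signals of 461, 427, 394, 1178 and 518 on dysplasia arrays 1 to 5, 3010.4, 2845, 3718, 3562 and 3240.0 on the transgenic arrays and 3121, 3667, 4028, 3236 and 3303 on the non-transgenic arrays. For Ednrb, dysplasia 4 stood above the other 4 dysplasia arrays and was still far below all transgenic and non-transgenic arrays. The log2 change of Ednrb was -2.47 (SE 0.24, adjusted p = 2.54e-05) against transgenic tissue, where 18.2% of the mean remained, and -2.56 (SE 0.24, adjusted p = 9.47e-06) against non-transgenic tissue. Tmem100, a membrane protein downstream of bone morphogenetic protein signalling, had signals of 1538, 977, 1153, 2387 and 1093 on dysplasia arrays 1 to 5, 6693, 6044, 7755, 7998 and 6803 on the transgenic arrays and 9369, 10009, 9443, 9895 and 6847 on the non-transgenic arrays. The dysplasia arrays did not overlap either other group, and the log2 change was -2.33 (SE 0.21, adjusted p = 1.56e-05) against transgenic and -2.69 (SE 0.22, adjusted p = 3.15e-06) against non-transgenic tissue. Of the 2 other Ednrb probe sets tested, 1 fell by 0.95 (SE 0.17, adjusted p = 0.00124) against transgenic tissue, while the brighter of them, with a log2 change of -1.12 (SE 0.48, adjusted p = 0.0998), was not called.

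Car4 and Ednrb are both known from the large alveolar capillary cells that lie next to type 1 epithelium. On their brightest probe sets they moved by unlike amounts, while the other Ednrb probe sets fell less than the brightest. Car4 encodes a carbonic anhydrase on the luminal surface. Car4 had signals of 3114, 2908, 3553, 3738 and 2910.3 on dysplasia arrays 1 to 5, 7058, 7698, 8944, 8189 and 7006 on the transgenic arrays and 6426, 6570.4, 6692, 6287 and 5760.4 on the non-transgenic arrays. Every dysplasia array lay below every other array, and on this probe set the transgenic arrays lay above the non-transgenic ones. The log2 change of Car4 was -1.25 (SE 0.11, adjusted p = 1.14e-05) against transgenic and -0.96 (SE 0.10, adjusted p = 1.31e-05) against non-transgenic tissue.

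Gpihbp1 carries lipoprotein lipase to the capillary lumen, and Plvap forms the diaphragms of fenestrae and caveolae. Gpihbp1 had signals of 2731, 1722, 2097, 3004 and 2618 on dysplasia arrays 1 to 5, 9252, 5085, 7506, 7849.8 and 7719 on the transgenic arrays and 9508, 7932, 9742, 8849 and 8015 on the non-transgenic arrays. Plvap had signals of 3654, 2427, 2434, 2464 and 3545 on dysplasia arrays 1 to 5, 10266, 5235, 8151, 9276 and 7454 on the transgenic arrays and 10647, 8712, 10062, 9509 and 8364 on the non-transgenic arrays. Transgenic 2 was the lowest transgenic array for both genes, but it lay above all dysplasia arrays. The log2 changes against transgenic tissue were -1.60 (SE 0.18, adjusted p = 6.21e-05) for Gpihbp1 and -1.45 (SE 0.19, adjusted p = 0.000177) for Plvap. Kdr, VEGF receptor 2 and the main signalling receptor for the growth factor, had signals of 1364, 1045, 389, 1648 and 787 on dysplasia arrays 1 to 5, 4799.9, 3690.2, 2578, 3407 and 2372 on the transgenic arrays and 5309, 5598, 3941, 2939.7 and 2059 on the non-transgenic arrays. Its arrays were widely spread, with array number 5 the lowest of the transgenic and of the non-transgenic group, and its log2 change was -1.74 (SE 0.34, adjusted p = 0.00202) against transgenic and -1.92 (SE 0.38, adjusted p = 0.00156) against non-transgenic tissue. Array number 5 also had the lowest beta-actin ratio of each group. With that ratio as a covariate the change against transgenic tissue was -1.95 for Kdr and -2.06 for Pecam1, and with array number 5 left out of every group it was -1.79 and -1.93, all of them called.

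Of the remaining capillary genes, Ptprb, the phosphatase that restrains Tek, stood at 31.7% of the transgenic mean. Thbd, the anticoagulant receptor thrombomodulin, stood at 31.3%, and Ace, the angiotensin-converting enzyme of the capillary surface, at 34%. Emcn, a sialomucin of capillaries and veins, stood at 42.6% with a log2 change of -1.16 (SE 0.27, adjusted p = 0.00585), and its groups overlapped because transgenic 5 at 854 lay below dysplasia 1 at 967.

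Aplnr, the apelin receptor of general capillary cells, was the only gene tested without a call against transgenic tissue. Aplnr had signals of 3143, 7519, 6827, 6127 and 9284 on dysplasia arrays 1 to 5, 6942, 7501, 6314, 10399.7 and 11774 on the transgenic arrays and 10929.9, 7756, 11378, 12473 and 11733 on the non-transgenic arrays. The dysplasia and transgenic arrays overlapped broadly, and dysplasia 1 was far below the other 4 arrays of its group. The log2 change was -0.42 (SE 0.28, adjusted p = 0.282) against transgenic tissue with a 95% interval of -1.03 to 0.18, which still allows a fall as large as that of Flt1. Against non-transgenic tissue Aplnr was lower by 0.78 (SE 0.25, adjusted p = 0.0275), a call that was lost when dysplasia 4 or non-transgenic 1, 3, 4 or 5 was left out (adjusted p from 0.0508 to 0.0624) and with Xist as a covariate (adjusted p = 0.0688). The second Aplnr probe set had a log2 change of -0.32 (SE 0.20, adjusted p = 0.248) against transgenic and -0.78 (SE 0.16, adjusted p = 0.00233) against non-transgenic tissue. Counted together, 10 of the 11 capillary genes were lower against transgenic and 11 of 11 against non-transgenic tissue.

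All 3 arterial genes were lower in both comparisons. Sox17, a SoxF factor that specifies arterial endothelium, had signals of 1172, 1579, 1352, 2178 and 1715 on dysplasia arrays 1 to 5, 4099, 5025, 4822, 5087 and 5375 on the transgenic arrays and 6119, 5024, 5596, 5996 and 6292 on the non-transgenic arrays. Acvrl1, the receptor ALK1 for bone morphogenetic proteins, had signals of 1013, 610.4, 818, 1786 and 818 on dysplasia arrays 1 to 5, 4213, 3328, 4394, 4946 and 4213 on the transgenic arrays and 5033, 4462, 5660.4, 5397 and 4388 on the non-transgenic arrays. Neither gene overlapped between dysplasia and the other groups, and dysplasia 4 was the highest dysplasia array for both. The log2 change against transgenic tissue was -1.60 (SE 0.15, adjusted p = 2.1e-05) for Sox17 and -2.09 (SE 0.23, adjusted p = 5.28e-05) for Acvrl1, and against non-transgenic tissue it was -1.85 (SE 0.15, adjusted p = 3.02e-06) and -2.33 (SE 0.23, adjusted p = 1.14e-05). Bmx, a Tec-family kinase of arterial endothelium and endocardium, was near the lower end of what the array measured. Bmx had signals of 87.7, 86.5, 94, 145 and 92.4 on dysplasia arrays 1 to 5, 115, 278, 247, 259 and 298 on the transgenic arrays and 246, 162, 254, 284 and 145 on the non-transgenic arrays. Transgenic 1 and, narrowly, non-transgenic 5 lay below dysplasia 4, so the groups overlapped, and the log2 change was -0.90 (SE 0.20, adjusted p = 0.00437) against transgenic and -0.81 (SE 0.17, adjusted p = 0.00243) against non-transgenic tissue, both of which the offset of 50 makes smaller for a gene this dim.

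Vwf, the clotting protein that large vessels and platelets store, had signals of 1917, 1434, 2062, 2991 and 2164 on dysplasia arrays 1 to 5, 5967, 4921, 7017, 7519 and 6911 on the transgenic arrays and 8190.4, 7473, 6880.0, 7721 and 6821 on the non-transgenic arrays. Every dysplasia array lay below every other array, and the log2 change of Vwf was -1.61 (SE 0.18, adjusted p = 5.52e-05) against transgenic and -1.82 (SE 0.16, adjusted p = 5.78e-06) against non-transgenic tissue.

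Of the lymphatic genes, Prox1, the factor that defines lymphatic endothelium, stayed under the signal limit on every array. Its brightest probe set had signals of 11.5, 27, 1.48, 11.7 and 6.82 on dysplasia arrays 1 to 5, 30.6, 34.5, 12.1, 19.5 and 11.5 on the transgenic arrays and 14.7, 31.9, 5.34, 15.1 and 14.9 on the non-transgenic arrays, and the other 2 Prox1 probe sets had lower means still. Lyve1, a hyaluronan receptor of lymphatic vessels that some macrophages also carry, had signals of 2985, 1545, 2376, 3747 and 2046 on dysplasia arrays 1 to 5, 8911, 4139, 6210.3, 6323 and 5468 on the transgenic arrays and 10171, 7501, 7511, 7907 and 6880.2 on the non-transgenic arrays. Flt4, VEGF receptor 3 of lymphatic and some blood endothelium, had signals of 440.3, 446, 469, 587 and 452 on dysplasia arrays 1 to 5, 911, 927, 1295, 1223 and 1531 on the transgenic arrays and 1071, 1367, 1309.6, 1755 and 1940.2 on the non-transgenic arrays. In both genes every dysplasia array lay below every transgenic and non-transgenic array. The log2 change of Lyve1 was -1.29 (SE 0.25, adjusted p = 0.00189) against transgenic and -1.69 (SE 0.21, adjusted p = 6.92e-05) against non-transgenic tissue, and that of Flt4 was -1.20 (SE 0.15, adjusted p = 0.000107) and -1.52 (SE 0.15, adjusted p = 1.5e-05). Of a list of 10 macrophage genes that includes Lyve1, 7 were lower and 2 higher in dysplasia than in transgenic tissue. Over all probe sets, 17.9% were lower and 15.3% higher in that comparison. Against non-transgenic tissue 3 of the 10 macrophage genes were lower and 3 higher, with a median log2 change of 0.12. The shares over all probe sets there were 23.3% lower and 20.7% higher. Whether macrophages had a part in the Lyve1 signal was not tested.

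Set side by side, the roles differed little in their medians and much within themselves. The median signal in dysplasia as a share of the transgenic mean was 32.5% over the 11 capillary genes, 32.8% over the 3 arterial genes, 33.3% over the general genes and 40.8% over the 2 lymphatic genes tested. Within the capillary genes the share ran from 18.2% for Ednrb to 76.6% for Aplnr, and within the arterial genes from 23.9% for Acvrl1 to 42.2% for Bmx. Against non-transgenic tissue the medians were 28.2% for capillary, 27.5% for arterial, 29.6% for general and 31.97% for lymphatic genes. These medians are descriptions of a few genes each and were not tested against one another.

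**Figure D2:**
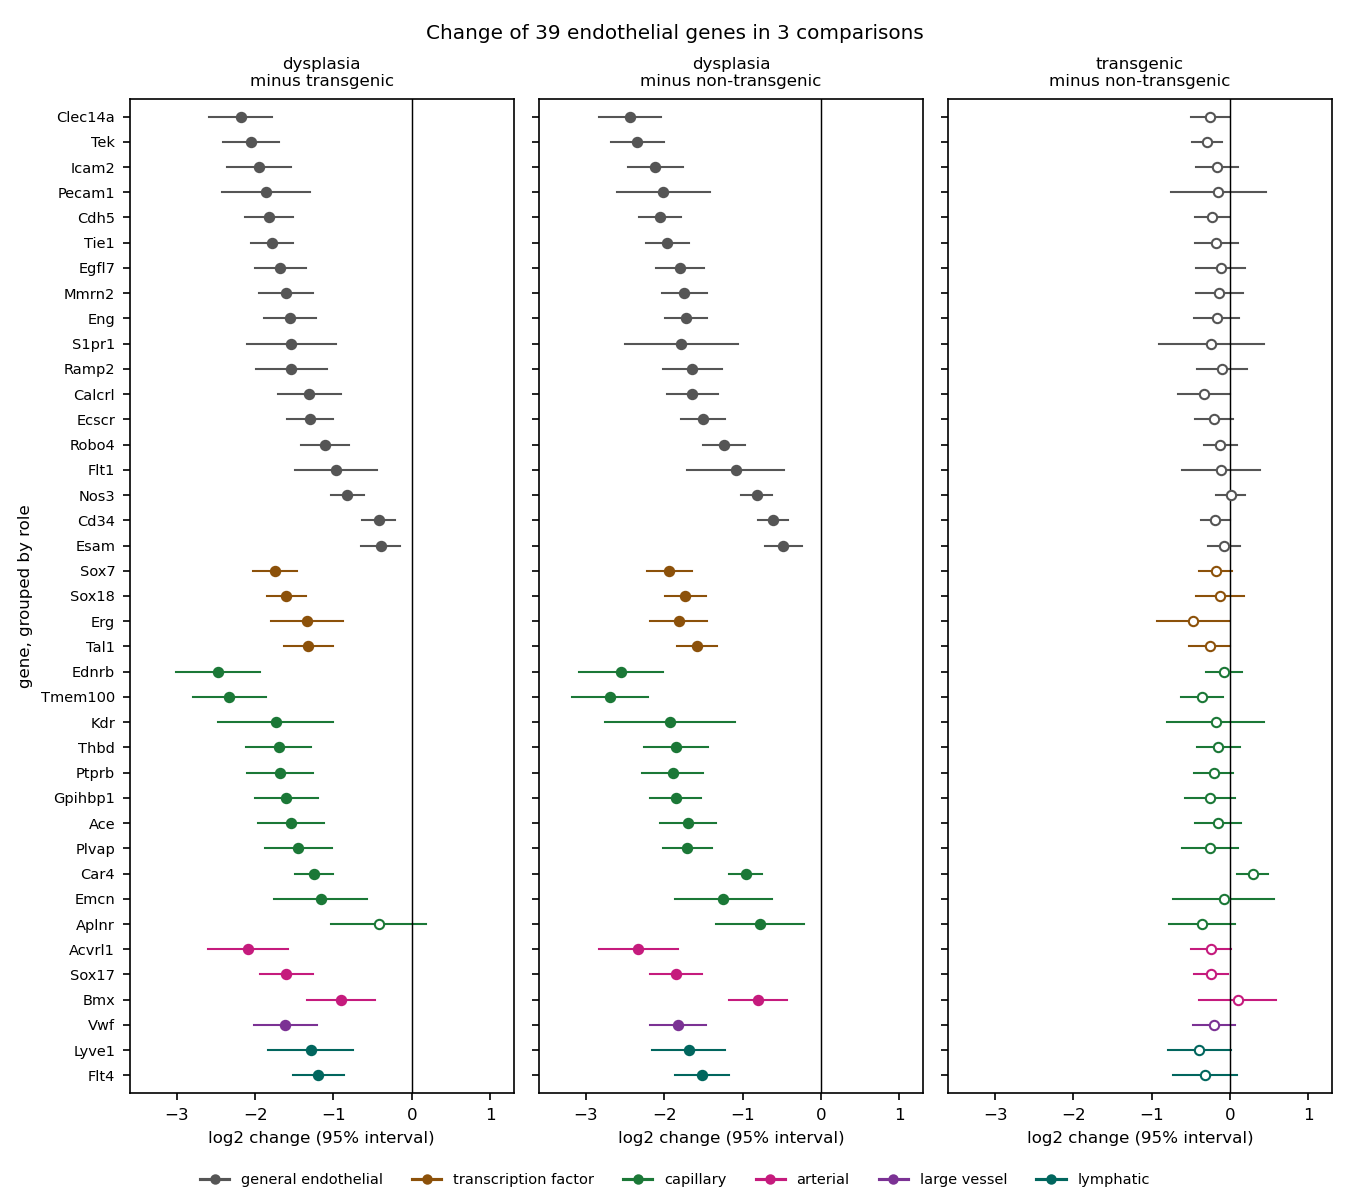
Log2 change on log2(signal + 50) (x axis) of the 39 endothelial genes tested (y axis), in dysplasia minus transgenic, dysplasia minus non-transgenic and transgenic minus non-transgenic tissue. Points are limma estimates with 95% intervals, filled where the adjusted p is below 0.05 and coloured by role. The first panel has 38 filled points, the second 39 and the third none.

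To set the falls of the genes against one another, the log2 signal of Cdh5 on each array was subtracted from that of every probe set and the fit was repeated. A value of 0 on this scale means the same fall as Cdh5 in signal with the offset added, and any error in the Cdh5 signal enters every value. Since Cdh5 itself fell, 97.4% of all probe sets were called higher and 0.175% lower relative to Cdh5 in dysplasia against transgenic tissue. Of the 38 other endothelial genes, 20 had no call, 15 were higher and 3 were lower on this scale, with a median of 0.27 against 1.81 over all probe sets. The genes that fell more than Cdh5 were Ednrb at -0.65 (SE 0.18, adjusted p = 0.00285), Tmem100 at -0.51 (SE 0.18, adjusted p = 0.0126) and Clec14a at -0.36 (SE 0.17, adjusted p = 0.0454). The Clec14a call was lost in 7 of the 10 fits that left out 1 array (dysplasia 1, 2, 3 or 5, or transgenic 2, 3 or 5). With Pecam1 in place of Cdh5 none of these 3 was called lower, with Ednrb at -0.61 (adjusted p = 0.076) and Tmem100 at -0.47 (adjusted p = 0.171). The Ednrb values are those of its brightest probe set, with a mean of 2447 over the 15 arrays. The other Ednrb probe sets tested, with means of 275 and 144, fell less against transgenic tissue than Cdh5, which changed by -1.82.

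The 15 genes called higher had fallen less than Cdh5 on this scale. Esam was higher by 1.43 (SE 0.18, adjusted p = 2.19e-06), Cd34 by 1.40 (SE 0.16, adjusted p = 7.31e-07) and Nos3 by 0.995 (SE 0.17, adjusted p = 3.86e-05) relative to Cdh5, and among capillary genes Aplnr was higher by 1.40 (SE 0.27, adjusted p = 0.00013) and Car4 by 0.57 (SE 0.17, adjusted p = 0.00466). The arterial kinase Bmx was higher by 0.92 (SE 0.20, adjusted p = 0.000418), and the lymphatic genes Flt4 and Lyve1 by 0.63 (SE 0.16, adjusted p = 0.00159) and 0.53 (SE 0.23, adjusted p = 0.0366). The others called higher were Flt1, Robo4, Emcn, Ecscr, Calcrl, Tal1 and Erg, between 0.48 and 0.85 on the log2 scale. The added offset shrinks the fall of a dim gene more than that of Cdh5. This raises the values of dim genes such as Bmx, Nos3, Tal1 and Erg on this scale. By its mean signal in dysplasia, Bmx kept 42.2% of the transgenic mean and Cdh5 28.0%. With an offset of 16 the calls of Erg and Emcn were lost, while those of Bmx, Nos3 and Tal1 were kept. The calls of Erg, Emcn and Lyve1 were each lost in 6 or 7 of 10 fits that left out 1 array, with adjusted p up to 0.13. With Pecam1 as the reference Ecscr, Calcrl, Erg, Tal1, Car4, Lyve1 and Flt4 lost their calls, so that no transcription factor and no lymphatic gene stayed called, and 8 genes (Esam, Cd34, Aplnr, Nos3, Bmx, Flt1, Robo4 and Emcn) did. Relative to Cdh5, Pecam1, Tie1, Kdr, Sox17 and Vwf had no call, with differences from Cdh5 of -0.04, 0.03, 0.08, 0.22 and 0.21. The 95% interval was -0.31 to 0.38 for Tie1 and -0.55 to 0.72 for Kdr. With array number as a block, Plvap was called higher as well, by 0.37 (adjusted p = 0.0122), where the unblocked adjusted p was 0.113.

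Against non-transgenic tissue, relative to Cdh5, 3 genes were lower and 15 higher, where the background was 0.217% lower and 97.4% higher. Those lower were Tmem100 at -0.64 (SE 0.18, adjusted p = 0.00365), Ednrb, on its brightest probe set, at -0.50 (SE 0.17, adjusted p = 0.0126) and Clec14a at -0.39 (SE 0.15, adjusted p = 0.0244). Without dysplasia 4 the count lower was 5, Tek and Acvrl1 joining them. Car4 was higher by 1.09 (SE 0.15, adjusted p = 4.79e-06), and Esam by 1.58 (SE 0.17, adjusted p = 2.11e-07).

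**Figure D3:**
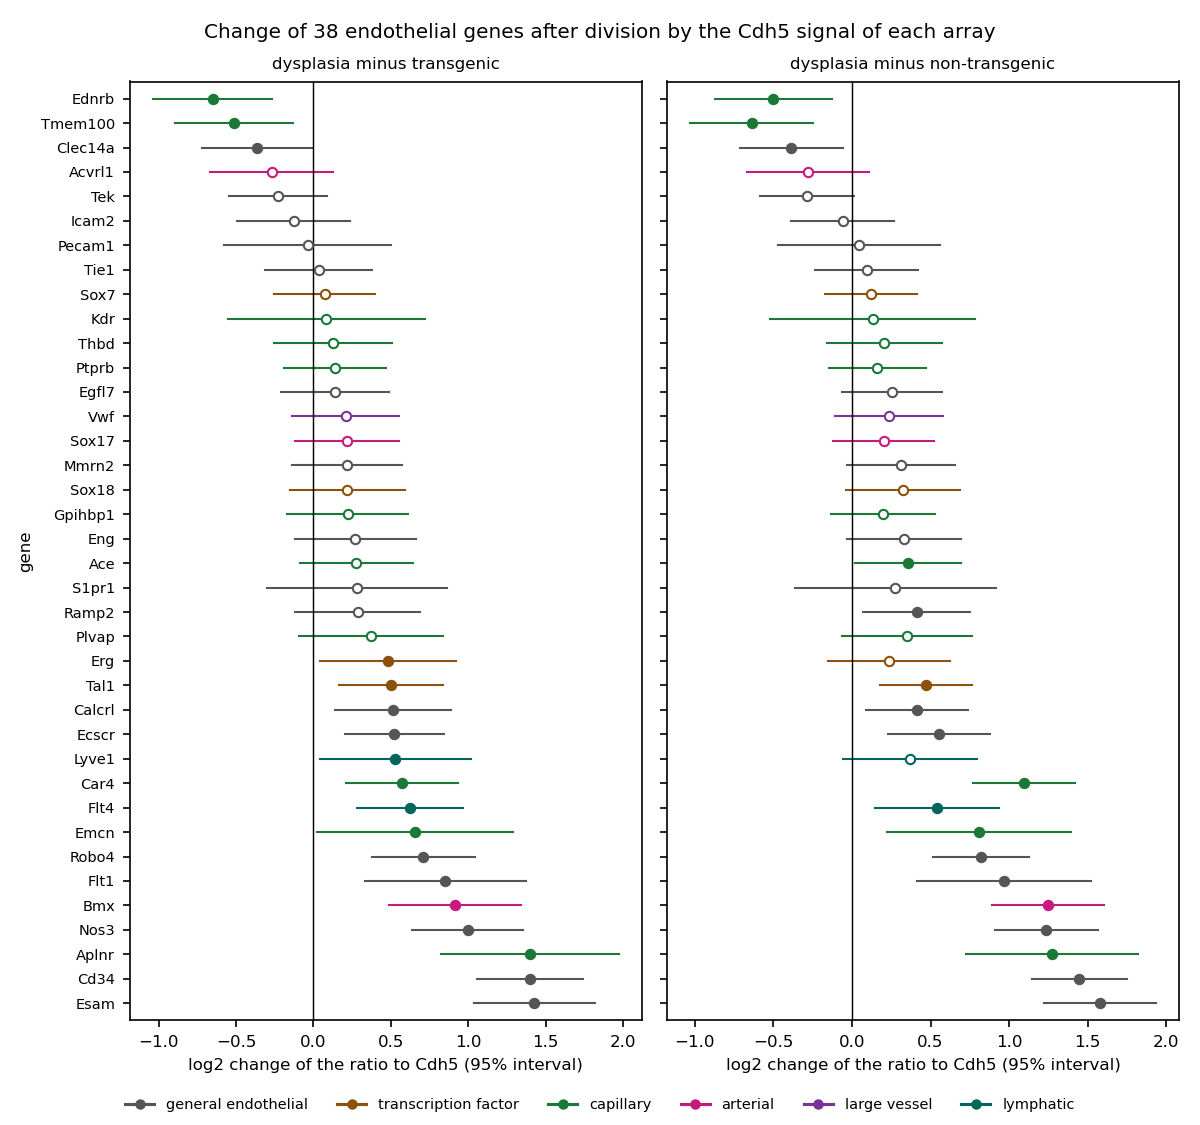
Log2 change of the ratio to Cdh5 (x axis) for 38 endothelial genes (y axis, ordered by the left panel) in dysplasia minus transgenic and dysplasia minus non-transgenic tissue, with 95% intervals. Points are filled where the adjusted p is below 0.05 and coloured by role. Ednrb, Tmem100 and Clec14a lie to the left of 0 and 15 filled points lie to the right in each panel, with Esam at 1.43 and 1.58 the farthest.

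Between transgenic and non-transgenic lung none of the 39 genes was called (limma), against 1.17% of all probe sets called higher and 0.0831% called lower. At an unadjusted p below 0.05, 8 genes were lower and 1 was higher, where the background was 4.68% lower and 7.44% higher. In sign, 36 of the 39 were lower in transgenic tissue, as were 54.9% of all probe sets, with a median log2 change of -0.19 against -0.02 over all probe sets, and without transgenic 2 the median was -0.12. Groups free of overlap made up 1.08% (lower) and 3.23% (higher) of all probe sets. Tek had no overlap, with all transgenic arrays below all non-transgenic ones, and a log2 change of -0.29 (SE 0.09, adjusted p = 0.174) and a 95% interval of -0.49 to -0.10. Car4 had none either and lay the other way, at 0.29 (SE 0.09, adjusted p = 0.196), with means of 7779 ± 814 in transgenic and 6347 ± 362 (SD, n = 5) in non-transgenic tissue. On the second Car4 probe set the groups overlapped, with 5798 to 7352 in transgenic and 4700 to 6165 in non-transgenic tissue. Its means were 6536 and 5725. The remaining signs above 0 were those of Nos3 and Bmx, at 0.01 and 0.10, and both turned when single arrays were left out. Relative to Cdh5, Car4 was the only gene called, higher in transgenic tissue by 0.52 (SE 0.11, adjusted p = 0.0339), with 3.46% of all probe sets called higher and 0.0185% lower on that scale. That call was lost when transgenic 1, 2 or 3 or non-transgenic 1, 2, 3 or 4 was left out (adjusted p from 0.0634 to 0.107), and with Pecam1 or Tie1 as the reference, where Car4 stood at 0.44 and 0.46 without a call. The ages of the 2 groups differ, so age and transgene cannot be told apart. Sex was unbalanced as well, since Xist was high on 4 of the 5 non-transgenic arrays and on 1 of the 5 transgenic arrays. With Xist as a covariate no endothelial gene was called, and the calls over all probe sets went from 272 to 110.

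Further endothelial genes, taken from lists beyond the 40, were mostly lower in dysplasia in the general, capillary and arterial lists and in 4 of 6 venous genes, but only in 2 of 6 lymphatic genes, against 17.9% of all probe sets called lower than in transgenic tissue. Of 21 other general endothelial genes tested, 19 were lower in dysplasia than in transgenic tissue, led by Arhgef15 at -1.90 and the tight junction gene Cldn5 at -1.88. Hhex, a homeobox gene of endothelium and of several epithelia, was higher, at 1.49 (SE 0.16, adjusted p = 4.23e-05), with mean signals of 4360.2 in dysplasia and 1561 in transgenic tissue. Epas1, the hypoxia-inducible factor HIF-2 alpha, had a log2 change of -0.18 (SE 0.17, adjusted p = 0.488) and no call. All 9 further capillary genes tested were lower, led by Fibin at -2.17 and Hpgd, which breaks down prostaglandins, at -1.92, and Lpl, the lipase that Gpihbp1 binds, fell by 0.68 against transgenic tissue and had no call against non-transgenic tissue, at -0.33 (SE 0.14, adjusted p = 0.0759).

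Of 8 further arterial genes tested, 6 were lower, led by the chemokine Cxcl12 at -1.77 and the Notch target Hey1 at -1.74, while the matrix genes Mgp and Fbln2 had no call at 0.01 and -0.03. The arterial connexin Gja5 and the factor Hey2 were under the signal limit. The venous genes that were lower were led by the lymphatic growth factor Vegfc at -1.55 and the noradrenaline transporter Slc6a2 at -1.50. The leukocyte adhesion molecule Vcam1 was higher, at 0.43 (SE 0.13, adjusted p = 0.0203), and Selp had no call at -0.38. Of 6 further lymphatic genes, Nrp2 at -0.99 and Reln at -0.88 were lower, and Mmrn1, Pdpn, Thy1 and Itga9 had no call, at -0.98, -0.32, -0.04 and 0.66. The median log2 changes were -1.53, -1.36, -1.30, -1.05 and -0.60 over the general, capillary, arterial, venous and lymphatic lists, and Pdpn and Thy1 are also made by alveolar type 1 cells and by fibroblasts. Against non-transgenic tissue the counts lower were 19, 8, 6, 5 and 3 of the same lists, where 23.3% of all probe sets were called lower, with Hhex again higher. No venous gene, Vcam1 included, was called higher in that comparison, where the largest venous log2 change was 0.21.

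Markers of several other cell types also differed between dysplasia and transgenic tissue, some higher and some lower. Of 10 epithelial genes tested, 9 were higher in dysplasia than in transgenic tissue and Cdh1 had no call, with a median log2 change of 1.39. Krt18, a keratin of simple epithelia, rose by 2.14, and Cldn4 by 2.69. The summed signal of the 11 genes of that list ran from 72217 to 92093 on the dysplasia arrays, 30875 to 33412 on the transgenic and 23743 to 28270 on the non-transgenic arrays, while the summed signal of the 40 endothelial genes ran from 62823 to 93509, 165901 to 217333 and 209496 to 243300. The brightest probe sets weigh most in such sums. Of 9 type 2 cell genes, 8 had no call and Etv5 was higher by 0.50, while of 8 type 1 cell genes 5 were lower and 1, Aqp5, was higher. Of 8 pericyte and smooth muscle genes tested, 6 were lower, of 10 fibroblast genes 5 were lower, and of 6 red cell and platelet genes 5 were lower. Over all probe sets tested, 17.9% were called lower and 15.3% higher in the same comparison of dysplasia with transgenic tissue. Higd1b, a pericyte gene, fell by 1.50, Tcf21, a lung fibroblast factor, by 2.71, and the platelet gene Ppbp by 2.63 on the log2 scale. The part of these cell types in the endothelial result was not tested, and the lesions were cut for their dysplastic epithelium. In transgenic against non-transgenic tissue 5 of the 10 epithelial genes were higher, among them Epcam by 0.64, and 3 of 10 macrophage genes were higher, among them Siglecf by 1.13, while 1 of 8 pericyte and smooth muscle genes was lower. The shares over all probe sets in that comparison were 1.17% higher and 0.0831% lower.

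**Figure D4:**
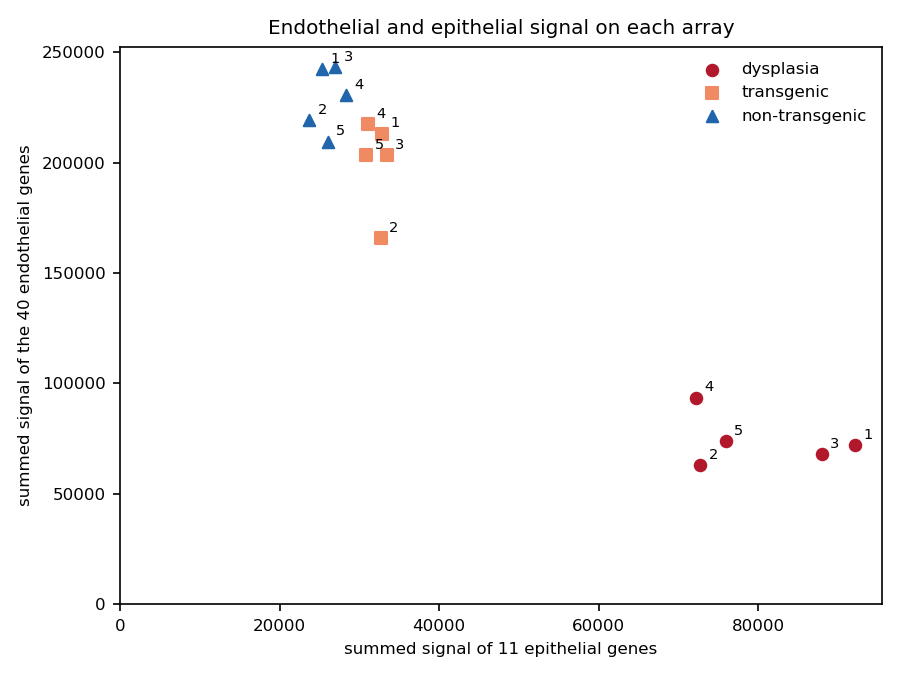
Summed signal of the 40 endothelial genes (y axis, arbitrary units) against that of 11 epithelial genes (x axis, arbitrary units), with 1 point for each of the 15 arrays and its number beside it. The 5 dysplasia arrays lie at the lower right and the other 10 at the upper left, where transgenic 2 has the lowest endothelial sum, 165901.

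Other probe sets of the same genes gave a check on the choice of probe. Of the 23 further probe sets tested, in 17 of the 40 genes, 20 were lower in dysplasia than in transgenic tissue, none was higher and 3 had no call, namely those of Flt1, Ednrb and Aplnr named above. Against non-transgenic tissue 22 were lower and the second-brightest Ednrb probe set had no call, at -1.32 (SE 0.54, adjusted p = 0.0708). Acvrl1 was measured alike by its 2 probe sets, at -2.09 and -2.10, as was Sox17, at -1.60 and -1.52.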

How the data were processed

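The authors hybridised RNA from laser-microdissected lung to Affymetrix Mouse Genome 430 2.0 arrays and deposited 1 intensity per probe set and array, the linear GCOS signal scaled to a target of 500. The sources used here do not name a GCOS version. From the 45101 probe sets deposited, 64 controls were removed. Symbols came from the platform annotation, updated through RefSeq, and gave 34945 probe sets a single gene, 932 several and 9160 none. Values were taken as log2(signal + 50) of the deposited signal, and the 21658 probe sets with a mean over 100 were tested. Each comparison used its own 10 arrays in an unpaired limma fit (limma 3.58.1, R 4.3.3) with Benjamini-Hochberg adjustment over all of them, tested on simulated data first. Intervals are 95%. No array signal gives a read depth, and 5 arrays per group limit the precision.

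The array numbers were checked for pairing through the deviations of arrays from their group means. Between arrays with the same number these correlated between 0.219 and 0.773 in dysplasia and transgenic tissue. In transgenic and non-transgenic tissue they correlated between 0.135 and 0.793, although those groups are different mice, so an equal number there is not a shared animal. The main fits stayed unpaired, and array number as a block was run as an alternative. The labels do not say what a number marks. In dysplasia and non-transgenic tissue the correlation was -0.004 for number 4 and between 0.261 and 0.727 for the other numbers. The mean over equal numbers was 0.405 there, against -0.0995 over unequal numbers. In transgenic and non-transgenic tissue these means were 0.452 and -0.108, and in dysplasia and transgenic tissue 0.612 and -0.150. In dysplasia and transgenic tissue all 10 arrays correlated best with their own number in the other group. This held for 5 of 10 arrays in dysplasia and non-transgenic tissue and for 4 of 10 in transgenic and non-transgenic tissue. What the shared deviations reflect was not tested. The two-sided p-values set a difference of group means against the spread between arrays within groups. They treat the arrays as independent, although the dysplasia and transgenic arrays hold tissue of the same animals. In that comparison 7192 of 21658 probe sets were called without the block and 10661 with it.

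The 40 members, the lists and the tests were chosen with earlier results of these data known. All values on every array were given for genes of each role fixed by name, for the 4 largest and 4 smallest falls against transgenic tissue, and for genes without a call or below the signal limit. Other members are given by share and change, and of further lists those that rose or had no call and the 2 largest falls. Alternatives were another offset (16), quantile normalization, equal totals, no signal limit or a limit of 200, a fit of all 3 groups, array number as a block, trended robust moderation, covariates for the actin ratio and for Xist, the most variable probe set, other reference genes and leaving out arrays. Leaving out dysplasia 4 with transgenic 4, or number 5 of each group, was chosen after seeing the data.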

Additional observations from a re-analysis of the deposited data

Results flagged for a closer look

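In 13 of 117 groups of 5 arrays (39 genes in 3 groups), 1 array stood apart by Dixon's ratio, the gap to its nearest neighbour over the range of the group on log2(signal + 50), above the critical value of 0.71. Chance alone gives about 1 in 20. Dysplasia 4 was the high array for 4 genes, Clec14a (0.733), Ednrb (0.758), Bmx (0.85) and Flt4 (0.78). Pecam1 was low on array number 5 in transgenic (0.863) and in non-transgenic tissue (0.731), and Tmem100 on non-transgenic 5 (0.826). Transgenic 2 was low for Eng (0.725) and Ace (0.794), and transgenic 1 for Bmx (0.788). Sox7 was high on transgenic 3 (0.81). On non-transgenic 2, Nos3 was high (0.72) and Aplnr low (0.722).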

How the results depend on the processing

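Under every alternative run, between 37 and 38 endothelial genes were called lower in dysplasia than in transgenic tissue, between 38 and 39 than in non-transgenic tissue, and none between transgenic and non-transgenic tissue, with no change of direction among the calls. With array number as a replicate block the counts were 38, 39 and 0. The counts relative to Cdh5 depended more on the setting. With Pecam1 as the reference they were 0 lower and 8 higher against transgenic tissue, 0 lower and 9 higher against non-transgenic tissue, and 0 between transgenic and non-transgenic tissue, where Tie1 as the reference also gave 0. The cause was not tested. With the block they were 3 lower and 16 higher, then 2 lower and 14 higher (Clec14a at -0.39, adjusted p = 0.0521, and Ace at 0.36, adjusted p = 0.0729, lost their calls), then 1 higher. Leaving out 1 array gave 2 to 4 lower and 12 to 16 higher against transgenic tissue, 2 to 5 lower and 12 to 17 higher against non-transgenic tissue (5 lower without dysplasia 4), and 0 to 1 higher between transgenic and non-transgenic tissue. Of the log2 changes between transgenic and non-transgenic tissue, 15 values of 7 genes (Nos3, Bmx, Emcn, Ednrb, Ramp2, Pecam1 and Flt1) changed sign, none of them called. Signals were far above the limit of 100 for most of these genes, but Bmx, Nos3 and Tal1 were dim, and Prox1 could not be measured.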

Other observations

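The second-brightest probe set of Ednrb had signals of 138, 177, 43.4, 61.0 and 41.6 on dysplasia arrays 1 to 5, 522, 682, 97.8, 161 and 100.2 on the transgenic arrays and 418, 1264, 174, 152 and 91.5 on the non-transgenic arrays. Arrays 1 and 2 were the highest of each group, and array 5 the lowest or, in transgenic tissue, next to the lowest. The beta-actin 5′ to 3′ ratio was also highest on arrays 1 and 2 in each group, at 69.9% and 75.2%, 46.3% and 63.4%, and 54.6% and 72.8%, and lowest on array 5, at 25.1%, 12.5% and 14.1%. Emcn was lowest on array 5 in each group as well, at 405, 854 and 909.7 (dysplasia, transgenic, non-transgenic), while Cdh5 on the same arrays was 2113, 7763 and 8209 and was the lowest of its group only in non-transgenic tissue. The part of RNA integrity in the values of this Ednrb probe set was not tested.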
